A study of Rattus norvegicus with 84 samples.

Results

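The mTOR complex components and regulators described here are 10 genes named by symbol: the kinase gene Mtor, the complex subunits Rptor and Rictor, the upstream inhibitors Tsc1, Tsc2, Ddit4 and Sesn2, and the downstream translation genes Eif4ebp1, Rps6kb1 and Pdcd4. Of these 10, 9 matched exactly 1 locus each among the 17502 loci (16997 symbols) of the deposited tables. Rictor had no row under that symbol and was not analysed here. The 84 libraries hold RNA from ground kidney, liver and gastrocnemius, a calf muscle, and come from male rats of the outbred Sprague Dawley stock. Young rats (10 libraries per tissue) took vehicle for 6 weeks from an age of 4.5 months and were read out at 6 months. Aged rats (10 libraries per tissue) took vehicle daily for 6 weeks from 22.5 months and were read out at 24 months. Treated aged rats (8 libraries per tissue) had the same ages and took RAD001 by mouth once a week, 7 doses in all, with vehicle on the other days. RAD001 is everolimus, a rapalog, and the vehicle that all groups share is a microemulsion in water with methylcellulose. Each library mixes the RNA of every cell type of the organ, and nothing in the labels says that each library came from a separate rat, so p-values measure the spread between libraries, which may be partly technical.

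The kinase mTOR works in a pair of complexes. In mTORC1 it is joined by raptor and is switched on at the lysosome by amino acids through the Rag GTPases and by growth factors through Rheb, which the TSC1-TSC2 complex holds in check. Active mTORC1 phosphorylates 4E-BP1, freeing the cap-binding factor eIF4E, and S6 kinase 1, which acts on ribosomal protein S6, eEF2 kinase and PDCD4. Rapalogs bind FKBP12 and then mTORC1, and they act on the protein and not directly on these transcripts, so the levels below say nothing about kinase activity.

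Levels are mean read coverage per base of a locus, scaled between the libraries of a tissue. No source at hand states whether introns count in a locus, so levels are compared between groups and tissues and not between genes. Fold and log2 changes were computed after adding 0.1 to each scaled value. This understates changes, and more so at low levels, as for Rptor, Tsc2, Tsc1 in kidney and liver, Eif4ebp1 in kidney, and Ddit4 and Sesn2 outside kidney. A gene was called where limma's adjusted p (Benjamini-Hochberg over all loci tested in the tissue) was under 0.05. Relative sequencing depth, estimated from the values, differed at most 1.71-fold between libraries, and each held 11697 to 13767 loci above 0. The summed markers of kidney epithelium, hepatocytes and muscle fibres placed each library with its labelled tissue. All 3 comparisons within a tissue come from 1 fit of 28 libraries, and the age and RAD001 comparisons share the aged vehicle libraries, so their values are set side by side and not correlated.

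In kidney, 2 members were called with age, both higher, and 5 with RAD001, where 43% and 37.4% of all tested loci were called. Pdcd4, which encodes an inhibitor of the RNA helicase eIF4A, rose 1.32-fold with age and fell with RAD001 to 0.547 of the aged level. Eif4ebp1, which encodes the translation repressor 4E-BP1, rose 1.61-fold with age and fell with RAD001 to 0.734 of it. With RAD001, Mtor rose 1.19-fold and Sesn2, a stress-induced leucine sensor that restrains mTORC1, rose 1.28-fold, while Rps6kb1, the gene of S6 kinase 1, fell to 0.903 of the aged level.

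Pdcd4 (chromosome 1, 282042185 to 282060931, plus strand, rn5) had in kidney a lowest, median and highest level of 1.55, 1.70 and 2.19 in the young, of 1.80, 2.34 and 2.72 in the aged, and of 1.07, 1.22 and 1.31 in the treated group. Every treated library lay below every aged and every young one, while the young and aged groups overlapped. The share of all loci without overlap was counted only for treated against aged kidneys and is given below. Young kidneys averaged 1.73 ± 0.181 (SD, n = 10), aged ones 2.34 ± 0.335 (SD, n = 10) and treated ones 1.22 ± 0.0758 (SD, n = 8). The log2 change was 0.40 with age (SE 0.07, adjusted p = 2.21e-05), -0.87 with RAD001 (SE 0.07, adjusted p = 2.98e-10) and -0.47 for treated aged against young (SE 0.07, adjusted p = 1.48e-05). The treated level was thus below the young one as well as the aged one. In whole tissue, fewer cells of a type that holds the transcript and less transcript per cell cannot be told apart.

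Eif4ebp1 (chromosome 16, 68580262 to 68593651, minus strand) had in kidney a lowest, median and highest level of 0.290, 0.330 and 0.452 in the young, 0.399, 0.630 and 0.853 in the aged and 0.282, 0.421 and 0.531 in the treated group. The aged libraries spread widely, and all 3 groups overlapped. Young kidneys averaged 0.339 ± 0.0488 (SD, n = 10), aged ones 0.618 ± 0.153 (SD, n = 10) and treated ones 0.422 ± 0.0842 (SD, n = 8), for log2 changes of 0.69 with age (SE 0.10, adjusted p = 7.64e-06) and -0.45 with RAD001 (SE 0.11, adjusted p = 0.00257). The treated mean was 0.683 of the aged one and the aged mean 1.82 times the young one, both farther from 1 than the fitted folds, and over the other settings, pseudocounts among them, the log2 change with age ranged from 0.40 to 0.82. Treated aged against young kidneys gave 0.24 (95% interval 0.02 to 0.47, adjusted p = 0.106).

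**Figure D1:**
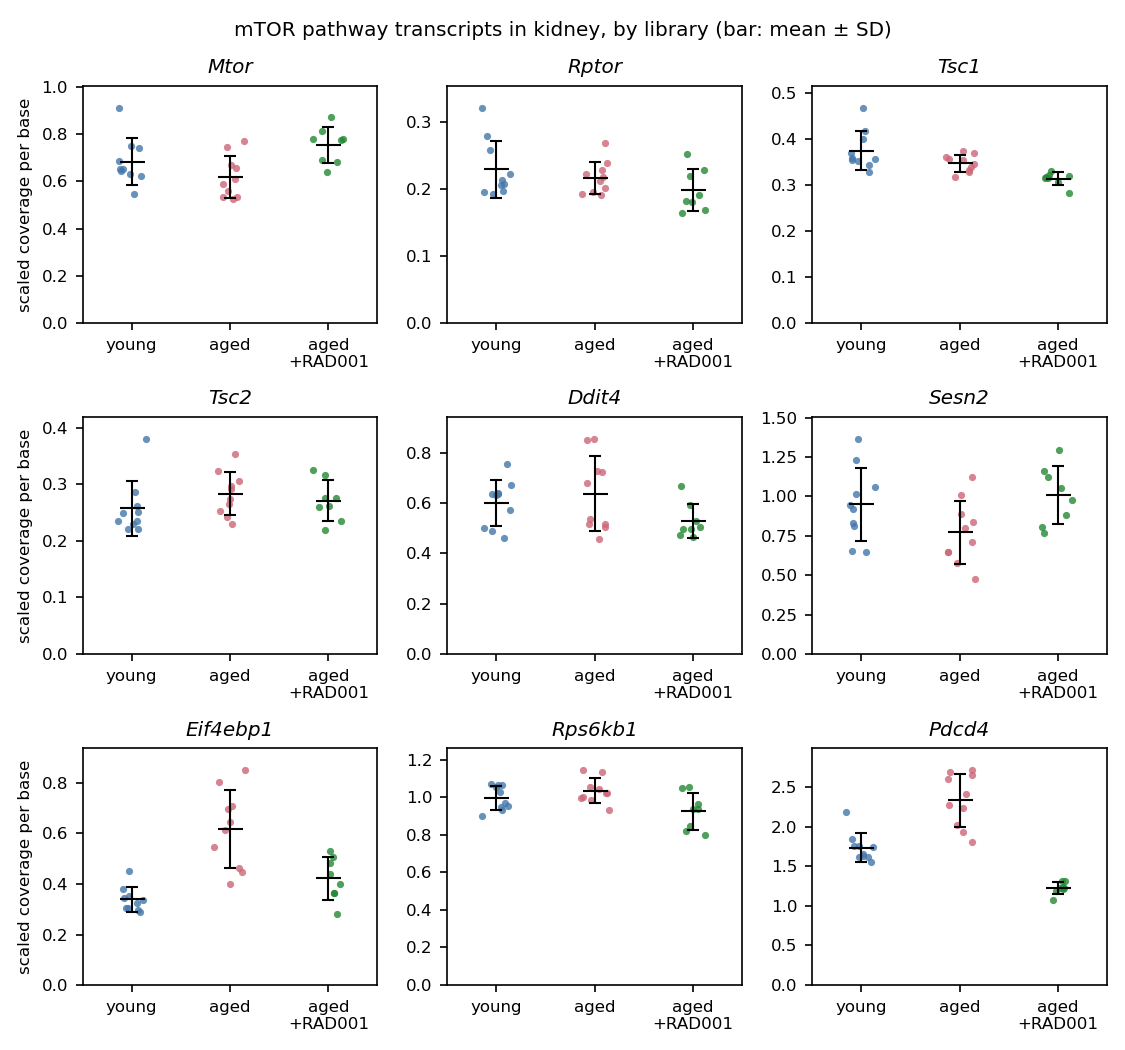
Scaled coverage per base (vertical axes, each starting at 0) of the 9 measured transcripts in kidney, with 1 point per library for 10 young, 10 aged and 8 treated aged libraries, and bars giving the mean ± SD. The treated Pdcd4 libraries (1.07 to 1.31) lie below all others, and Eif4ebp1 is highest in the aged group (mean 0.618).

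The kinase gene Mtor (chromosome 5, 168920418 to 169030568, plus strand) had kidney levels of 0.546, 0.651 and 0.912 (lowest, median, highest) in the young, 0.524, 0.599 and 0.769 in the aged and 0.640, 0.778 and 0.870 in the treated group. The groups overlapped, with the treated median the highest. The log2 change was 0.25 with RAD001 (SE 0.08, adjusted p = 0.0103) and -0.12 with age (adjusted p = 0.161). Rptor (chromosome 10, 108353696 to 108658916, plus strand), whose product raptor presents substrates to the kinase, lay between 0.164 and 0.321 in all 28 kidney libraries and passed the test in no kidney comparison. Its change with RAD001 was -0.09 (95% interval -0.24 to 0.06).

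Among the upstream inhibitors in kidney, Sesn2 (chromosome 5, 154351304 to 154370252, minus strand) had levels of 0.647, 0.932 and 1.37 (lowest, median, highest) in the young, 0.478, 0.757 and 1.13 in the aged and 0.767, 1.02 and 1.29 in the treated group. Its groups overlapped broadly, and the log2 change with RAD001 was 0.36 (SE 0.13, adjusted p = 0.0363). With age it was -0.27 (adjusted p = 0.0918). Tsc1 (chromosome 3, 12588005 to 12615637, plus strand), the gene of hamartin, which stabilises TSC2, had medians of 0.357, 0.349 and 0.316 in young, aged and treated kidneys. It fell in treated aged against young kidneys by 0.20 on the log2 scale (SE 0.05, adjusted p = 0.00255), while the change against aged vehicle was -0.11 (adjusted p = 0.0528). Tsc2 (chromosome 10, 13778990 to 13813550, minus strand), the gene of tuberin, the part that inactivates Rheb, passed in no kidney comparison and ranged from 0.220 to 0.381. Its 3' end overlaps the opposite-strand locus Pkd1 by 4 bp. Ddit4 (chromosome 20, 31315023 to 31317123, minus strand), the gene of the stress protein REDD1, which turns TSC1-TSC2 on, had medians of 0.633, 0.606 and 0.501, and its change with RAD001 was -0.21 (95% interval -0.42 to -0.01, adjusted p = 0.0981).

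Rps6kb1 (chromosome 10, 76234214 to 76275379, plus strand) varied little in kidney. Its lowest, median and highest levels were 0.902, 0.996 and 1.07 in the young, 0.930, 1.02 and 1.15 in the aged and 0.801, 0.936 and 1.05 in the treated group. The log2 change of -0.15 with RAD001 (SE 0.05, adjusted p = 0.0232) was called though the groups overlapped.

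Set against all loci, 2 of 9 members were called with age in kidney, where 43% of 10447 tested loci were called (20.8% higher, 22.2% lower). The RAD001 comparison called 5 of 9 members, 2 higher and 3 lower, against 37.4% of loci (18.3% higher, 19.1% lower). Treated aged against young called 2 of 9, both lower, against 26.5% of loci (12% higher, 14.5% lower). The median log2 change of the members was 0.05 with age and -0.11 with RAD001, beside -0.00075 and 0.00015 over all tested loci. Groups did not overlap for 1 of 9 members, Pdcd4, in the RAD001 comparison, as for 3.25% of tested loci.

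The kidney RAD001 calls differed in how far they rested on single libraries and on the processing. Pdcd4 was called in all 28 fits that left out 1 library (adjusted p 5.95e-11 to 1.95e-09) and in all 12 other settings (log2 change -0.94 to -0.71). The replicate number as a block and the values as deposited without scaling each left 3 of the 5 calls, since Sesn2 and Rps6kb1 no longer passed. Sesn2 also lost its call with upper-quartile scaling (adjusted p = 0.0709) and with a filter of at least 1 (adjusted p = 0.0886). It lost it too without any 1 of 10 libraries (treated replicates 1, 2, 3, 6 and 7 and aged vehicle replicates 3, 4, 7, 8 and 10, adjusted p 0.0507 to 0.0827), and Rps6kb1 without treated replicate 1, 2 or 3 (adjusted p 0.0510 to 0.0594). Tsc1 gained a RAD001 call with median-of-ratios scaling (adjusted p = 0.0499), upper-quartile scaling (adjusted p = 0.0127), a pseudocount of 0.01 (adjusted p = 0.0484) and only the 2 groups compared (adjusted p = 0.0345). Calls were also gained for Tsc1 without aged replicate 10 or young replicate 1 or 7 (adjusted p 0.0257 to 0.0493) and for Ddit4 without aged replicate 10 (adjusted p = 0.0456). With age, Tsc2 gained one without young replicate 1 (adjusted p = 0.0386) and Sesn2 without young replicate 2 or 4 or aged replicate 6 (adjusted p 0.0344 to 0.0462), and Eif4ebp1 gained one in treated aged against young kidneys without treated replicate 1 (adjusted p = 0.0414) and with only the 2 groups compared (adjusted p = 0.0406).

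Several other measures moved with the kidney groups. Coverage of 7SL, a structural RNA of the secretory pathway, was 33651 ± 3931 (SD, n = 8) in treated and 25258 ± 2573 (SD, n = 10) in aged kidneys as deposited, with overlapping ranges. With log2 7SL as a covariate, Pdcd4 was the only member of the RAD001 comparison still called (log2 change -0.76, SE 0.11, adjusted p = 1.01e-04). In that fit the changes of Mtor (0.26, SE 0.12, adjusted p = 0.224) and Eif4ebp1 (-0.45, SE 0.18, adjusted p = 0.150) were as large as without the covariate and their errors larger. Those of Sesn2 (0.25, adjusted p = 0.5264) and Rps6kb1 (-0.06, adjusted p = 0.686) were smaller, and Tsc1 lost its call in treated aged against young kidneys (-0.19, adjusted p = 0.106). Rn45s, the locus of the 45S precursor of ribosomal RNA, was at 232 ± 27.4 (SD, n = 8; 182 to 278) in treated and 430 ± 67.2 (SD, n = 10; 353 to 544) in aged kidneys as deposited, with no overlap, and its part in the member results was not tested. Of the 6 muscle fibre markers, 5 had a mean of at least 0.1 in treated kidneys and none had in the aged, and their summed level spanned 0.0597 to 7.61 in the treated against 0.0148 to 0.0747 in the aged libraries, beside at least 2628 in gastrocnemius. Without the 4 treated libraries whose sum exceeded 1 (replicates 1, 3, 6 and 7), an alternative chosen after seeing the data, Pdcd4 changed by -0.87 (adjusted p = 4.205e-07), Eif4ebp1 by -0.36 (adjusted p = 0.0551) and Mtor by 0.16 (adjusted p = 0.254), with 1 of 9 members called and 4 treated libraries left. Hepatocyte markers summed to 0.208 to 8.74 in young, 0.152 to 0.659 in aged and 0.324 to 2.33 in treated kidneys. In liver their sum was at least 3435. The part of these hepatocyte traces in the member results was not tested.

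Markers of macrophages, fibroblasts and T cells moved with age and RAD001 in kidney as well, while those of other cell types did not follow the same order. The summed level of 6 macrophage markers had a median of 14.5 in the young (10.6 to 20.2), 37.6 in the aged (20.6 to 60.9) and 19.2 in the treated group (16.7 to 34.3). The 6 fibroblast markers had medians of 12.3 (10.5 to 14.9), 24.1 (14.6 to 28.2) and 15.6 (12.3 to 19.1), and the 5 T cell markers of 0.920 (0.754 to 1.03), 2.10 (1.12 to 3.39) and 1.25 (0.880 to 1.90). Not every marker carried these sums. Means of at least 0.1 in young, aged and treated kidneys were reached by 3, 5 and 4 macrophage markers. For fibroblast markers the counts were 5, 6 and 5, and for T cell markers 3, 5 and 4. In the same order of groups, endothelium markers had medians of 6.69, 6.39 and 6.36, and kidney epithelium markers of 198, 155 and 183. Adipocyte markers had medians of 1.82, 1.13 and 1.37, and erythroid markers of 45.5, 42.7 and 60.1. Eif4ebp1 and Pdcd4 were highest in the aged group. The part of any of these cell types in the member results was not tested.

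In liver, 1 member rose with age and none passed the test with RAD001, where 16.6% and 15.7% of all tested loci were called. Eif4ebp1 rose 1.46-fold with age and stayed high with RAD001. Its lowest, median and highest levels were 0.830, 1.12 and 1.30 in the young, 1.0, 1.70 and 1.87 in the aged and 1.53, 1.67 and 2.11 in the treated group. Young and aged libraries overlapped through a single low aged library, whereas every treated library lay above every young one. The share of all liver loci without overlap between treated and young libraries was not counted. Young livers averaged 1.07 ± 0.182 (SD, n = 10), aged ones 1.62 ± 0.266 (SD, n = 10) and treated ones 1.74 ± 0.203 (SD, n = 8). The log2 change was 0.55 with age (SE 0.10, adjusted p = 1.21e-04), 0.11 with RAD001 (95% interval -0.09 to 0.32) and 0.66 for treated aged against young (SE 0.10, adjusted p = 1.71e-05). The age call and the treated-against-young call held in all 28 fits without 1 library and in all 11 other settings.

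The other 8 liver members passed in no comparison. In treated aged against young livers, however, Tsc1 (-0.19, adjusted p = 0.0525) gained a call without any 1 of 7 libraries (young replicates 1 and 8, aged replicates 2, 3 and 4 and treated replicates 2 and 5, adjusted p 0.0284 to 0.0475) and with only the 2 groups compared (adjusted p = 0.0332), and Rps6kb1 (-0.17, adjusted p = 0.0728) without young replicate 1 or 7 or treated replicate 8 (adjusted p 0.0404 to 0.0481). Pdcd4 had medians of 1.08, 1.11 and 1.08 in young, aged and treated livers, and its RAD001 change was -0.08 (95% interval -0.26 to 0.09). Sesn2 had medians of 0.287, 0.239 and 0.342, and its RAD001 change of 0.31 had an unadjusted p of 0.0200 (adjusted p = 0.0859). It passed when the fit held only the 2 groups compared (adjusted p = 0.0268), with sample quality weights (adjusted p = 0.0395), and without treated replicate 9 (adjusted p = 0.0420) or young replicate 4 (adjusted p = 0.0476). Mtor medians were 0.612, 0.567 and 0.585, Rptor stayed between 0.138 and 0.254, and Tsc1 between 0.166 and 0.306. Tsc2 and Rps6kb1 had RAD001 changes of 0.15 (95% interval -0.01 to 0.31) and -0.11 (95% interval -0.26 to 0.03). Ddit4 was close to the limit of measurement, at 0.0498 to 0.235 in the young, and its coverage amounted to 0.634 to 3.08 reads over a base across the 28 libraries.

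With age 1 of 9 members was called in liver, and it rose, against 16.6% of 8991 loci (7.86% higher, 8.71% lower). With RAD001 0 of 9 were called by limma, against 15.7% of loci called (7.62% higher, 8.13% lower), and 1 of 9 had an unadjusted p under 0.05, against 32.4% of loci. Treated aged against young called 1 of 9, higher, against 34.9% of loci (17% higher, 18% lower). The median change of the members was -0.09 with age and 0.06 with RAD001, beside 0.0023 and -0.00095 over all loci.

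**Figure D2:**
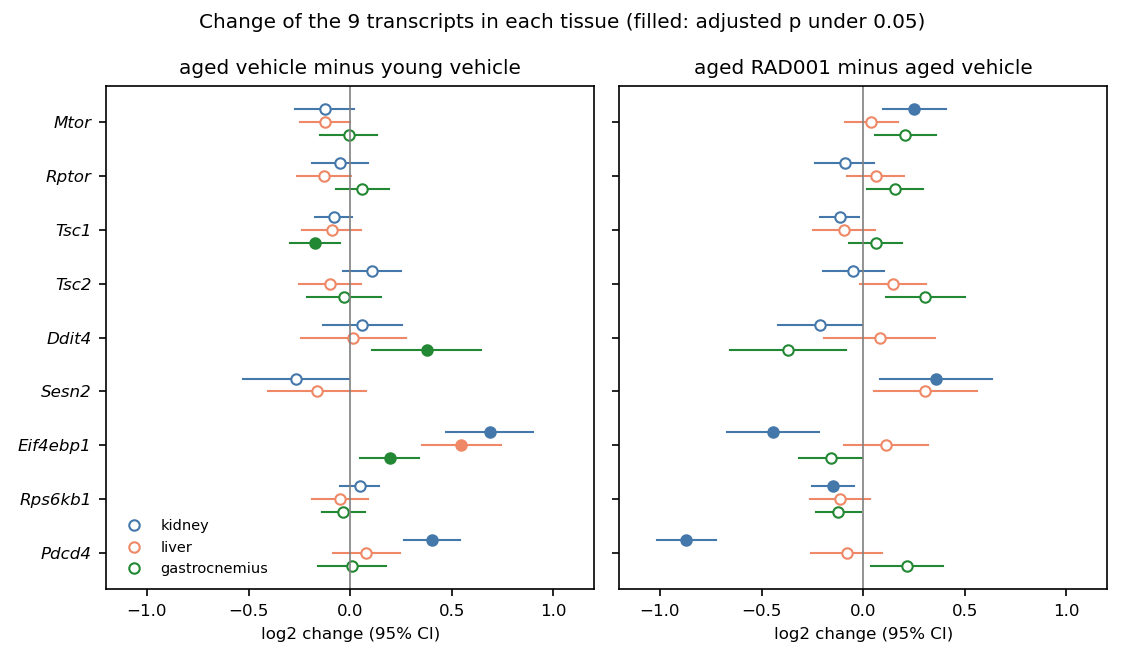
Log2 change of each transcript (horizontal axes, with 95% confidence intervals) for aged against young vehicle rats and for RAD001 against vehicle in aged rats, coloured by tissue, with filled points at an adjusted p under 0.05. Eif4ebp1 lies right of 0 in all 3 tissues with age, and Pdcd4 with RAD001 in kidney (-0.87) lies farthest from 0. Sesn2 has no point in gastrocnemius, where it was below the filter.

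In gastrocnemius, 8 members were tested and 3 were called with age, beside 35.4% of all tested loci. Sesn2 was below the filter there, at 0.0236 to 0.135 in the young, or 0.365 to 1.59 reads over a base across all libraries. Ddit4 rose 1.30-fold with age, and its aged mean was 1.42 times the young one. Its coverage was 1.48 to 9.76 reads over a base (median 3.45) over the muscle libraries. Its lowest, median and highest levels were 0.115, 0.202 and 0.362 in the young, 0.204, 0.297 and 0.498 in the aged and 0.130, 0.206 and 0.309 in the treated group. The groups overlapped, with a log2 change of 0.38 (SE 0.13, adjusted p = 0.0250), which was lost without aged replicate 1 or young replicate 3 or 9 (adjusted p 0.0518 to 0.0601).

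Eif4ebp1 had muscle levels of 2.29, 2.67 and 3.37 (lowest, median, highest) in the young, 2.78, 3.09 and 3.65 in the aged and 2.41, 2.78 and 3.54 in the treated group. Its log2 change with age was 0.19 (SE 0.07, adjusted p = 0.0314) in overlapping groups, and the call was lost without any 1 of 8 libraries (aged replicates 5, 6 and 10 and young replicates 1, 2, 4, 5 and 9, adjusted p 0.0504 to 0.0673) and with no filter (adjusted p = 0.0604). Tsc1 fell by 0.17 with age (SE 0.06, adjusted p = 0.0255), from a median of 0.596 (0.423 to 0.641) to one of 0.4932 (0.396 to 0.604). That call was lost without aged replicate 1 (adjusted p = 0.0624), and it was lost with the values as deposited (log2 change -0.05), a scale on which the median of all tested loci shifted by 0.12.

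With RAD001, 0 of 8 members were called in gastrocnemius by limma after adjustment, against 3.37% of 8836 loci (1.72% higher, 1.65% lower), though 7 of the 8 had an unadjusted p under 0.05, against 21% of loci. The largest of these changes was that of Ddit4, at -0.37 (95% interval -0.66 to -0.08, adjusted p = 0.129). Tsc2 changed by 0.31 (adjusted p = 0.0687), Mtor by 0.21 (adjusted p = 0.104), Pdcd4 by 0.22 (adjusted p = 0.149) and Rptor by 0.15 (adjusted p = 0.179). Eif4ebp1 changed by -0.16 (adjusted p = 0.217) and Rps6kb1 by -0.12 (adjusted p = 0.187). A fit of only the 2 groups compared called Mtor (adjusted p = 0.0353) and Tsc2 (adjusted p = 0.0467), and Tsc2 also passed without young replicate 8 (adjusted p = 0.0471).

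Treated aged against young muscle called 5 of 8 members, 4 higher and 1 lower, against 36.5% of loci called (17.9% higher, 18.6% lower), and age called 3 of 8, 2 higher and 1 lower, against 35.4% (17% higher, 18.4% lower). Mtor had levels of 0.607, 0.811 and 1.02 (lowest, median, highest) in the young, 0.729, 0.838 and 0.885 in the aged and 0.885, 0.949 and 1.06 in the treated group. It rose by 0.20 in treated aged against young muscle (SE 0.07, adjusted p = 0.0329), with overlapping groups. Rptor rose by 0.22 (SE 0.07, adjusted p = 0.0123), from a median of 0.193 (0.150 to 0.258) to one of 0.236 (0.203 to 0.279). Tsc2 rose by 0.27 (adjusted p = 0.0236), Pdcd4 by 0.23 (adjusted p = 0.0395), and Rps6kb1 fell by 0.16 (adjusted p = 0.0233), from a median of 1.32 to one of 1.18. The member medians were 0.0018 with age, 0.11 with RAD001 and 0.12 for treated aged against young, beside 0.0018, -0.00090 and 0.0041 over all loci.

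Of these 5 calls Rptor held in each fit without 1 library and in all 10 other settings, though at only 1.84 to 4.60 reads over a base. Mtor lost its call without any 1 of 9 libraries (treated replicates 1, 5, 6 and 7 and young replicates 3, 5, 6, 9 and 10, adjusted p 0.0521 to 0.0709), Pdcd4 without any 1 of 10 (treated replicates 1, 5, 6, 7 and 8 and young replicates 1, 2, 4, 7 and 8, adjusted p 0.0534 to 0.114), Tsc2 without treated replicate 5 or 6 or young replicate 10 (adjusted p 0.0503 to 0.0693) and Rps6kb1 without treated replicate 8 (adjusted p = 0.0597) or young replicate 10 (adjusted p = 0.0504). With 7SL as a covariate Mtor (adjusted p = 0.0697), Tsc2 (adjusted p = 0.0806), Pdcd4 (adjusted p = 0.0884) and Rps6kb1 (adjusted p = 0.0594) lost theirs. Without a filter Mtor (adjusted p = 0.0599) and Pdcd4 (adjusted p = 0.0779) lost theirs, Mtor did with only the 2 groups compared (adjusted p = 0.0624), and Rps6kb1 did as deposited (adjusted p = 0.535) and with a filter of at least 1 (adjusted p = 0.160). Tsc1 gained a call without young replicate 6 (adjusted p = 0.0418).

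The tissues were then compared in 1 joint fit of all 84 libraries, which tests whether a change differed between them. The fit treats the libraries as separate, and the labels do not say whether organs of the same number came from 1 rat. For RAD001, 4 of 27 member results were called. These 27, and those for age below, include Sesn2 against gastrocnemius. Sesn2 was below the filter there, and the added 0.1 understates its muscle change. Pdcd4 changed more negatively in kidney than in liver (difference of log2 changes -0.74, SE 0.12, adjusted p = 2.50e-06) and than in gastrocnemius (-1.05, SE 0.12, adjusted p = 1.88e-10). Eif4ebp1 changed more negatively in kidney than in liver (-0.50, SE 0.13, adjusted p = 0.00328), and Tsc2 more negatively in kidney than in gastrocnemius (-0.34, SE 0.12, adjusted p = 0.0309). Kidney and liver differed for 2 of 9 members, beside 26.9% of 11365 loci, kidney and gastrocnemius for 2 of 9, beside 22% of loci, and liver and gastrocnemius for 0 of 9 by limma beside 7.07% of loci. At an unadjusted p under 0.05, liver and gastrocnemius differed for 3 of 9 members (Pdcd4, Ddit4 and Eif4ebp1), beside 22.8% of loci.

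For age, 4 of 27 member results were called as well. Pdcd4 changed more positively in kidney than in liver (0.30, SE 0.11, adjusted p = 0.0362) and than in gastrocnemius (0.38, SE 0.11, adjusted p = 0.00494). Eif4ebp1 changed more positively in kidney than in gastrocnemius (0.45, SE 0.13, adjusted p = 0.00373) and in liver than in gastrocnemius (0.38, SE 0.13, adjusted p = 0.0198). Kidney and liver differed for 1 of 9 members, beside 26.5% of loci, kidney and gastrocnemius for 2 of 9, beside 32.4%, and liver and gastrocnemius for 1 of 9, beside 25.6%. Among the 4 differences of Pdcd4, all were called in the 8 other settings. The Eif4ebp1 difference between kidney and gastrocnemius was lost at a pseudocount of 0.5 (adjusted p = 0.154), that between liver and gastrocnemius with the values as deposited (adjusted p = 0.218), and the Tsc2 difference with the values as deposited (adjusted p = 0.0664) and at a pseudocount of 0.01 (adjusted p = 0.0537).

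**Figure D3:**
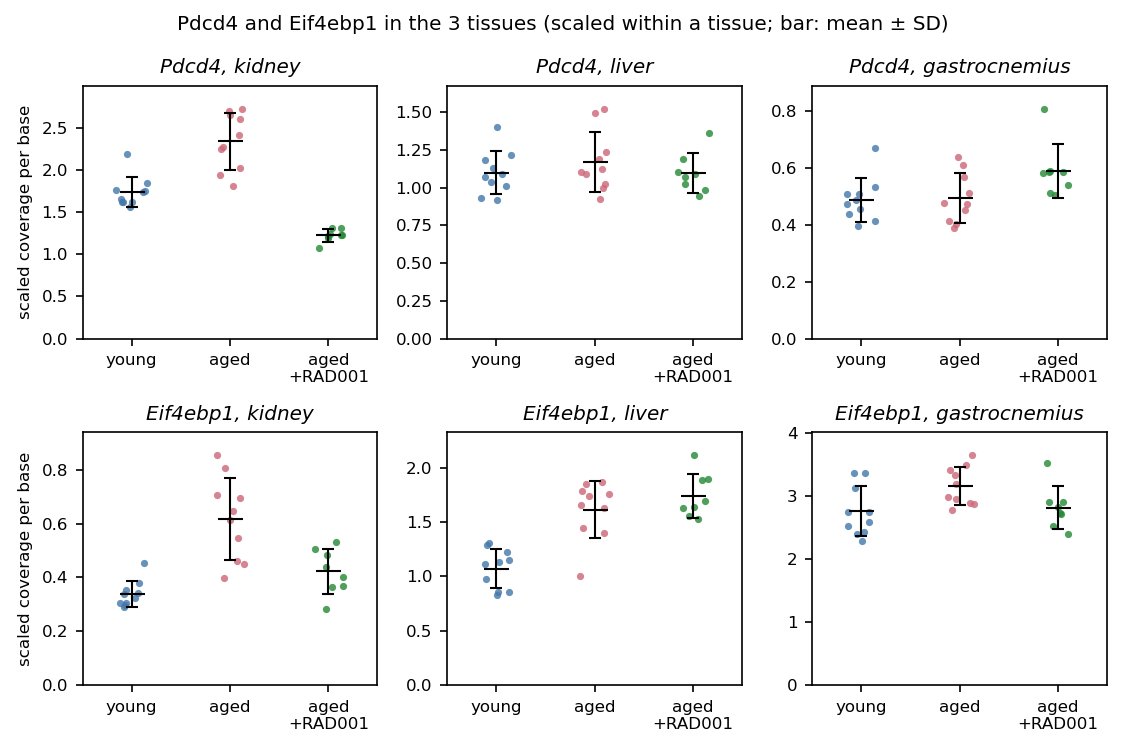
Scaled coverage per base of Pdcd4 (top) and Eif4ebp1 (bottom) in each library of kidney, liver and gastrocnemius, with vertical axes starting at 0 and bars giving the mean ± SD of 10 young, 10 aged and 8 treated aged libraries. Pdcd4 separates the treated group in kidney alone among the 3 tissues, while Eif4ebp1 is higher in aged than in young libraries in each tissue (means 0.618 against 0.339, 1.62 against 1.07 and 3.16 against 2.76).

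The members had different tissue orders in the young. On the joint scaling, Eif4ebp1 stood at 3.45 ± 0.496 in gastrocnemius, 1.28 ± 0.215 in liver and 0.236 ± 0.0343 in kidney (SD, n = 10 each). Its aged groups kept that order of tissues, and the highest kidney group mean, 0.419 in the aged, stayed below the lowest liver one. Sesn2 ran the other way, at 0.662 ± 0.161 in kidney, 0.344 ± 0.113 in liver and 0.0671 ± 0.0387 in gastrocnemius (SD, n = 10 each), where it was below the filter, so that its muscle level is a description with no test. Ddit4 was highest in kidney (0.418 ± 0.0646), lower in gastrocnemius (0.267 ± 0.0974) and lowest in liver (0.151 ± 0.0780, SD, n = 10 each). Tsc1 (0.715 ± 0.0786) and Tsc2 (0.462 ± 0.107) were highest in gastrocnemius, and Pdcd4 was lowest there, at 0.609 ± 0.0970 (SD, n = 10 each).

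Of the 27 comparisons of young levels, 25 were called, but both of Sesn2 against gastrocnemius had to differ, since Sesn2 entered the joint fit only through kidney and liver. Without them 23 of 25 were called, where 79.3% of loci differed between kidney and liver, 85.1% between kidney and gastrocnemius and 85% between liver and gastrocnemius. Those shares cover all 11365 loci of the joint fit, among them loci below the filter in a compared tissue (8836 passed in gastrocnemius and 8991 in liver). They are therefore not like for like with 23 of 25. The orders of Eif4ebp1, Sesn2 and Ddit4 kept their direction under each scaling. The kidney-to-liver direction of Mtor, Rptor, Tsc1, Tsc2 and Pdcd4 did not, since the joint scaling lowered kidney relative to liver. Mtor, for one, stood at 0.476 in kidney and 0.738 in liver on the joint scaling, but at 0.670 and 0.610 as deposited, and Rptor reversed against gastrocnemius too, so no order of these genes between kidney and liver is given.

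**Figure D4:**
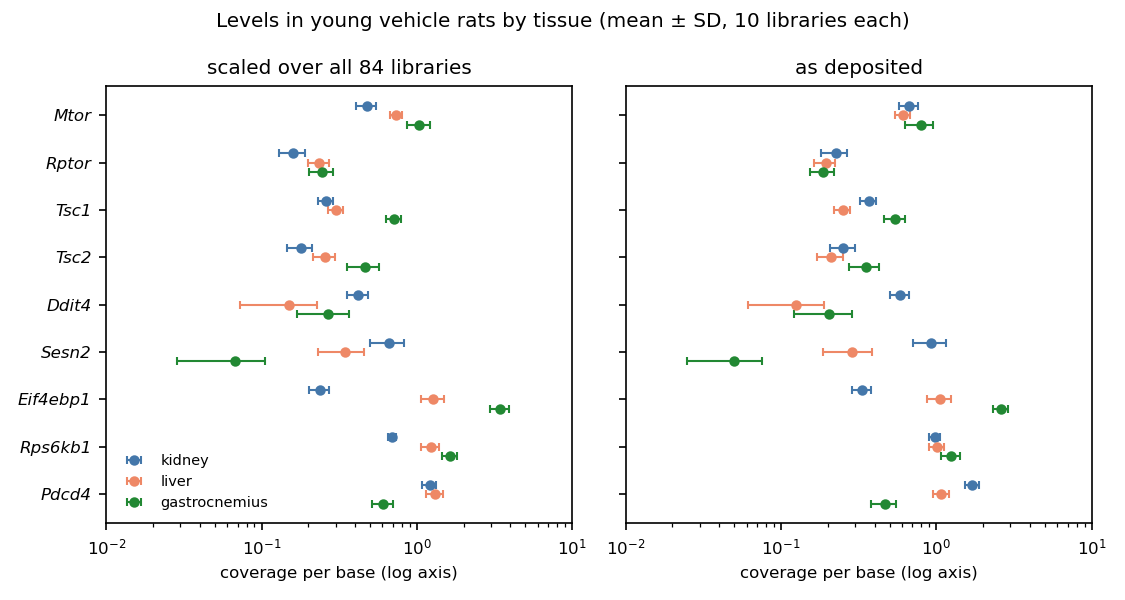
Coverage per base (horizontal log axes) of the 9 transcripts in young vehicle rats, as mean ± SD over 10 libraries per tissue, scaled jointly (left) and as deposited (right). Eif4ebp1 runs from 0.236 in kidney to 3.45 in gastrocnemius on the joint scaling, and the order of kidney and liver turns between the panels for Mtor, Rptor, Tsc1, Tsc2 and Pdcd4.

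By the likeness of their pattern, measured as Pearson's r of log2 means over the 9 groups among 1702 well-covered named loci (1701 for Rps6kb1), each member was paired with its 2 closest loci. Points of this kind share libraries and scaling, and most of their spread is between tissues. Eif4ebp1 was most like Fkbp1a (r = 0.993), the gene of FKBP12, to which RAD001 binds, and Anxa6 (0.990). Pdcd4 had the weakest partners, Cdk4 (0.953) and Aamp (0.903). The others were Mtor with Trpc4ap and Cops8, Rptor with Zbtb20 and Psmd11, Tsc1 with Pfdn1 and Tsn, Tsc2 with Fbxl17 and Ywhag, Rps6kb1 with Ldha and Psme4, Ddit4 with Mtch1 and Wdr1, and Sesn2 with Tgm2 and Atp6v0e1, at 0.973 to 0.995.

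Promoter windows were looked up for the members, from 250 bases before to 50 after the annotated start (RefSeq, assembly GRCr8), and 7 of the 9 measured members had one. Those of Pdcd4, Mtor and Sesn2 are shown, 3 members that changed with RAD001 in kidney in unlike directions. Capitals mark matches, on either strand, to the CCAAT box (CCAAT), the GC box (GGGCGG) and the core of hypoxia response elements (ACGTG).
Pdcd4 promoter (chr1:262926445-262926744, plus strand): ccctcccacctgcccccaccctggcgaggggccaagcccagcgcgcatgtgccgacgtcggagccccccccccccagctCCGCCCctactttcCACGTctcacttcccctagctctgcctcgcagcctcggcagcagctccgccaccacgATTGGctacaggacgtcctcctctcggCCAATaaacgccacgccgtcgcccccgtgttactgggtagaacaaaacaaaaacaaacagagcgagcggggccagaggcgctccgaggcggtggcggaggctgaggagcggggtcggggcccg
Mtor promoter (chr5:164167735-164168034, plus strand): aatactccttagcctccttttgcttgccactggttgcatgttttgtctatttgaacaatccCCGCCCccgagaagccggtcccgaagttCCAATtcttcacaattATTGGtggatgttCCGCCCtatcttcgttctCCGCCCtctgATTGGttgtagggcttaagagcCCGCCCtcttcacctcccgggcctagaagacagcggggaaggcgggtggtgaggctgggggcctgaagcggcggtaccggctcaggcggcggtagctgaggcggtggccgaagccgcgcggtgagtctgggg
Sesn2 promoter (chr5:150005206-150005505, minus strand): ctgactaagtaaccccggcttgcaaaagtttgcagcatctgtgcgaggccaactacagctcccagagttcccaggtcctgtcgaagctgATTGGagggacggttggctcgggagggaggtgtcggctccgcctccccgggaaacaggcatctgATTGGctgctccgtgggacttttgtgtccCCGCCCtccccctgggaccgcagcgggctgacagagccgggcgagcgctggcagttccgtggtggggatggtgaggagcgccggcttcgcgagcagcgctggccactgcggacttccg

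All 3 windows hold both CCAAT and GC boxes, which 37.5% and 33.1% of 33469 windows of the same length hold. The Pdcd4 window alone among them holds ACGTG, found in 19.3% of windows, and the windows of Ddit4 and Tsc2 hold it as well. No member window holds CACGTG, which contains ACGTG and occurs in 6.42% of windows, TTGCATCA (0.790%) or TATAAA (14.2%), and that of Tsc1 holds TGTTTAC (3.78%). These are matches of letters in windows of another assembly than that of the coverage values.

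The other genes of the pathway are counted by list, beside the shares of all loci called. With age these were 20.8% higher and 22.2% lower in kidney, 7.86% and 8.71% in liver, and 17% and 18.4% in gastrocnemius. With RAD001 they were 18.3% and 19.1% in kidney, 7.62% and 8.13% in liver, and 1.72% and 1.65% in gastrocnemius. Of 6 tested subunits and assembly factors of the complexes, 3 fell with age in kidney and 1 rose with RAD001, with a median change of -0.20 with age. Mapkap1, the mTORC2 subunit SIN1, was among both, averaging 2.06 ± 0.150 (SD, n = 10) in young, 1.71 ± 0.147 (SD, n = 10) in aged and 1.98 ± 0.112 (SD, n = 8) in treated kidneys (log2 change -0.25 with age, adjusted p = 8.26e-05, and 0.20 with RAD001, adjusted p = 0.00259). It also fell with age in liver (-0.19, adjusted p = 0.00598) and gastrocnemius (-0.16, adjusted p = 0.00998). In liver Akt1s1, the mTORC1 inhibitor PRAS40, rose with RAD001 by 0.27 (adjusted p = 0.0389). Of the 2 tested partners of TSC and Rheb, none was called in kidney or liver. In treated aged against young muscle 1 fell, beside 18.6% of loci.

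Among amino acid sensing genes in kidney, 5 of 21 fell with age and none rose, while 4 rose and 1 fell with RAD001. Lamtor5, a subunit of the Ragulator that anchors the Rag GTPases to the lysosome, averaged 10.7 ± 1.28 in young and 6.90 ± 1.05 in aged kidneys (SD, n = 10 each), a fall with age (log2 change -0.64, adjusted p = 1.03e-06), and Lamtor4 rose with RAD001 by 0.23 (adjusted p = 4.38e-04). In liver 2 of 19 rose and 2 fell with age and 3 fell with RAD001, including Fnip1, a folliculin partner, from 0.738 ± 0.115 (SD, n = 10) to 0.443 ± 0.0532 (SD, n = 8; log2 change -0.62, adjusted p = 4.01e-04), and Sec13 fell with age by 0.20 (adjusted p = 0.0186). In gastrocnemius 2 of 20 rose and 8 fell with age, with Rragd, a Rag GTPase, at -0.48 (adjusted p = 1.90e-06).

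Of 23 insulin, PI3K, AKT and AMPK genes in kidney, 3 rose and 4 fell with age, and 5 rose and 4 fell with RAD001. Prkaa2, a catalytic subunit of AMPK, fell with age by 0.53 (adjusted p = 1.95e-06), and Pik3r1, the regulatory subunit p85, fell with RAD001 by 0.50 (adjusted p = 1.80e-04). In liver 1 of 20 rose with age, Akt1 (0.43, adjusted p = 0.00446), and 3 rose with RAD001, among them Stk11, the AMPK kinase LKB1 (0.39, adjusted p = 0.00387). In gastrocnemius 6 of 22 rose and 4 fell with age, with Irs1, the insulin receptor substrate, at -0.82 (adjusted p = 1.64e-07).

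Translation and autophagy effectors had 6 of 18 higher and 2 lower with age in kidney, and 1 higher and 5 lower with RAD001. Eef2k, the kinase that halts elongation by phosphorylating eEF2, averaged 0.330 ± 0.0471 in young and 0.5257 ± 0.0962 in aged kidneys (SD, n = 10 each), a rise with age (log2 change 0.53, adjusted p = 5.24e-06), and Maf1, a repressor of RNA polymerase III, rose with RAD001 by 0.42 (adjusted p = 2.87e-06). In liver Rps6 rose with age by 0.29 (adjusted p = 0.00111) and Eef2 with RAD001 by 0.31 (adjusted p = 0.0105), as 2 of 18 rose with age and 4 rose and 1 fell with RAD001. In gastrocnemius 2 of 18 rose and 5 fell with age, and Lpin1, the phosphatidate phosphatase lipin 1, changed by -0.98 (adjusted p = 4.25e-09). No gene of these lists was called with RAD001 in gastrocnemius, where only 3.37% of all loci were called.

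Ddit4 and Sesn2 are known as targets of stress pathways, so 3 lists of such genes were counted beside them. In kidney, where 20.8% of all loci rose and 22.2% fell with age and 18.3% rose and 19.1% fell with RAD001, ATF4 targets had 3 of 11 higher and 3 lower with age and 3 higher and 4 lower with RAD001. Glucocorticoid-induced genes had 7 of 11 higher and 1 lower with age and 2 lower with RAD001, and hypoxia targets had 2 of 9 higher and 4 lower with age and 1 in each direction with RAD001. In gastrocnemius, where Ddit4 rose with age as did 17% of loci while 18.4% fell, 4 of 10 glucocorticoid-induced genes rose and 1 fell, 1 of 8 hypoxia targets rose and 3 fell, and 2 of 8 ATF4 targets rose and 4 fell. In liver, beside 7.86% of loci higher and 8.71% lower with age, 5 of 11 glucocorticoid-induced genes rose and 1 fell with age, 2 of 6 hypoxia targets rose, and 1 of 9 ATF4 targets moved in each direction. With RAD001 in liver, beside 7.62% higher and 8.13% lower, 2 of 11 glucocorticoid-induced genes rose, 1 of 6 hypoxia targets rose and 2 fell, and 1 of 9 ATF4 targets rose.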

How the data were processed

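RNA of kidney, liver and gastrocnemius was sequenced in 84 libraries, grouped by their titles into 9 groups of 8 or 10. The submitters' processing notes name STAR 2.4.5a and rn5, and for the step from alignments to values per locus the tool was not given in the sources used here. Deposited values are coverage signal. Depth was estimated on loci under 200 bp, of which 69 to 165 per library could be examined. There the value times the locus length in 10-bp bins, allowing neighbouring bin counts, was a whole multiple of a library's step within 0.0001. The step was the one chosen to give the highest share of such multiples. Relative depth (0.807 to 1.38) and the reads over a base given above rest on that estimate. The most alike pair of libraries correlated at 0.996, and none was identical.

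Per tissue, a locus was kept if 8 or more libraries reached 0.1. Libraries were scaled by a trimmed mean (30% off each end) of log ratios, and log2(value + 0.1) was fitted with limma 3.58.1 in R 4.3.3 with a mean-variance trend, leaving 25 residual degrees of freedom per tissue and 75 in the joint fit. Intervals are 95%. Code was tested on simulated data. The members, lists and tests were chosen with earlier results of these data known, so no list is independent evidence. Beside the members, the text names, from each of 5 pathway lists, the called gene of smallest p per tissue for age and for RAD001, plus the 2 loci most like each member. RefSeq promoter windows (GRCr8) were matched by symbol. Other software was R package data.table (1.17.8), statmod 1.5.0, Python 3.11.15 with pandas 2.3.3 and NumPy 2.4.6, and matplotlib 3.10.9.

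Alternatives covered scaling (median of ratios, upper quartile, none), filters, pseudocounts, replicate number as a block, fits of the 2 compared groups, 7SL as covariate, quality weights and each library left out. Leaving out treated kidneys with traces of muscle RNA was added after seeing the data.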

Additional observations from a re-analysis of the deposited data

Results flagged for a closer look

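A library stood far from the rest of its group (Dixon's test) in 6 of 78 member groups, where chance flags about 1 in 20. The highest young kidney library reached 0.381 for Tsc2 (replicate 1), with the next at 0.287. Another young kidney library (replicate 2) reached 2.19 for Pdcd4, with the next at 1.84. In gastrocnemius, treated replicate 2 stood at 3.54 for Eif4ebp1, with the next at 2.91, and aged replicate 1 at 0.498 for Ddit4, with the next at 0.344. Pdcd4 in the same muscle was highest in young replicate 10, at 0.667 with the next at 0.532, and in treated replicate 8, at 0.806 with the next at 0.587.

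Changes that differed between tissues by the joint test were those of Pdcd4 with RAD001, kidney minus liver (-0.74) and kidney minus gastrocnemius (-1.05), and with age (0.30 and 0.38 in the same order). Eif4ebp1 differed with RAD001 between kidney and liver (-0.50) and with age between kidney and gastrocnemius (0.45) and between liver and gastrocnemius (0.38). Tsc2 differed with RAD001 between kidney and gastrocnemius (-0.34).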

How the results depend on the processing

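With RAD001 in kidney (5 called), 3 were called with values as deposited, 2 with a filter of at least 1, 3 with the replicate block, 1 with 7SL as a covariate and 1 without the 4 treated kidneys holding muscle RNA. Treated aged against young kidneys (2 called) gave 1 with the stricter filter and 1 with 7SL. In liver, RAD001 (0 called) gave 1 with only the 2 groups compared and 1 with quality weights, and treated aged against young (1 called) gave 2 with only the 2 groups compared. In gastrocnemius, age (3 called) gave 1 with the stricter filter, RAD001 (0 called) gave 2 with only the 2 groups compared, and treated aged against young (5 called) gave 3 with no filter, 0 with the stricter filter and 1 with 7SL. The stricter filter tested only Rps6kb1, Sesn2 and Pdcd4 in kidney and only Eif4ebp1 and Rps6kb1 in gastrocnemius. Other members had no test there rather than a lost call. Young levels between tissues (25 called) gave 11 with the stricter filter, which kept only Eif4ebp1, Rps6kb1, Sesn2 and Pdcd4 in the joint fit. As deposited, 3029 of 10447 loci were called with RAD001 in kidney. For settings other than scaling, the share of all loci called was not counted. Over all comparisons, TSC and Rheb partners (1 call) gave 0 with upper-quartile scaling and 0 as deposited, and the other complex subunits (10 calls) gave 5 as deposited; the cause was not tested.

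With each library left out, called members ranged in kidney from 2 to 3 with age, from 3 to 6 with RAD001 and from 2 to 3 for treated aged against young. In liver they stayed at 1 with age and ranged from 0 to 1 and from 1 to 3, and in gastrocnemius from 1 to 3, from 0 to 1 and from 2 to 5, in the same order.

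Young levels of kidney minus liver reversed as deposited, to 0.11 for Mtor, 0.14 for Rptor, 0.42 for Tsc1, 0.18 for Tsc2 and 0.61 for Pdcd4, as did kidney minus gastrocnemius for Rptor (0.18).

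Whether replicate numbers pair the libraries could not be decided, since differently numbered libraries were not correlated for comparison. The rule used asked the correlation of same-numbered libraries to exceed 0.1 in every pair. Within tissues 1 to 6 pairs did so per comparison, at most 6 of 10 (liver age), and for RAD001 in kidney 3 of 8 (-0.26 to 0.28). Between organs 19 of 28 pairs did for kidney and liver (median 0.13), 6 of 28 for kidney and gastrocnemius and 5 of 28 for liver and gastrocnemius. With the number as a block, RAD001 in kidney called 3 members, and in the joint fit, where the block's estimated correlation was 0.050, the differences between tissues of Pdcd4, Eif4ebp1 and Tsc2 that had been called stayed called. Rps6kb1 gained an age call in kidney with the stricter filter (0.13, adjusted p = 0.0241). Depth limits Ddit4 in liver and Sesn2 in gastrocnemius most, which rest on a few reads per base at most. Rptor was shallow too, at 1.84 to 4.60 reads over a base in gastrocnemius and 2.10 to 4.77 in liver. In liver Tsc1 had 2.73 to 5.24 and Tsc2 2.13 to 6.30, and in gastrocnemius Ddit4 had 1.48 to 9.76.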
